A study of Mus musculus with 6 samples.

Results

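The CXC chemokine ligands are 10 genes, Cxcl1, Cxcl2, Cxcl3, Cxcl9, Cxcl10, Cxcl12, Cxcl14, Cxcl16, Ppbp and Pf4, chosen by symbol from the 16254 genes of the deposited count table. All 10 were listed there. They were compared between mouse eosinophils treated with extracellular vesicles (EVs) from activated TH2 cells and eosinophils treated with a sham control. The cells were grown from the bone marrow of C57BL/6 mice 6 to 12 weeks old, with FLT3 ligand and stem cell factor followed by IL-5, which drives eosinophil differentiation, and were used on culture day 12. The EV-treated group (n = 3) received 5e9 EVs per ml for 24 h, and the sham-treated group (n = 3) received unconditioned medium taken through the same isolation for the same time. The replicates are named biological replicates in the labels, but whether each came from a separate mouse is not given in the sources used here, so that p-values measure the spread between these 6 samples.

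CXC chemokines are small secreted proteins named for a pair of cysteines held apart by another residue, and they guide leukocytes through G protein-coupled receptors. CXCL1, CXCL2, CXCL3 and the processed product of Ppbp carry a glutamate-leucine-arginine motif before these cysteines and attract neutrophils through CXCR2. CXCL9 and CXCL10 are interferon-induced ligands of CXCR3, CXCL12 is the stromal ligand of CXCR4 that holds leukocytes in the marrow, and CXCL16 is a membrane-anchored ligand of CXCR6. In innate cells Cxcl1, Cxcl2 and Cxcl3 are classic targets of NF-kB, and the CXCR3 ligands are classic targets of interferon regulatory factors. Eosinophils release chemokines as well as responding to them.

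Of the 7 ligand genes with enough counts to be tested, 6 were lower in EV-treated eosinophils (Cxcl2, Cxcl3, Cxcl14, Cxcl16, Ppbp and Pf4), 0 were higher, and Cxcl12 did not pass the threshold. Genes were called at an adjusted p under 0.01, from the quasi-likelihood test of edgeR with Benjamini-Hochberg adjustment over 13498 genes, and 11.6% of the genes tested were lower and 12.1% higher. Of these 7 genes, 0 were higher at an unadjusted p under 0.05, and DESeq2 and limma also called 0 higher at the adjusted threshold. Cxcl10, which was below the count filter, was higher at an unadjusted p under 0.05 in the fits that include it, edgeR without the filter and DESeq2. It missed the adjusted threshold in edgeR, and DESeq2 gave it no adjusted p. The median log2 fold change of the 7 genes was -1.92, against -0.01 over all genes tested. Cxcl1, Cxcl9 and Cxcl10 had too few counts for the test. Each of the 6 genes that were lower had at least 18 counts in every library, so that none of them entered the test through its sham-treated group alone. The total count per library ranged from 23697620 to 37874426. In bulk samples, fewer cells of a type that makes a transcript and less of the transcript per cell cannot be told apart. The paper reports that such EVs, at the same dose and time, raised eosinophil survival over that of untreated cells. It also reports less apoptosis after EV treatment, quantified in culture at an earlier time. The groups may therefore differ in their living cells, and the part of survival in the ligand and marker values was not tested.

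Most of the ligand genes lie on chromosome 5 of the mouse genome (GRCm38, the build named mm10 in the labels). Ppbp, Pf4, Cxcl3, Cxcl1 and Cxcl2 lie in this order on the forward strand within 137.421 kb, from 90768518 to 90905938, with Cxcl15 between Cxcl3 and Cxcl1. Cxcl9 and Cxcl10 lie on the reverse strand, 18.558 kb apart, from 92321347 to 92348889. Cxcl12 lies on chromosome 6 (117168535 to 117181367, forward), Cxcl14 on chromosome 13 (56288643 to 56296551, reverse) and Cxcl16 on chromosome 11 (70453983 to 70459984, reverse).

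The upstream sequences are shown for the neutrophil-attracting genes Cxcl1, Cxcl2 and Cxcl3, which share a motif, and for Cxcl10, which carries a different one. They are the 250 bases before the RefSeq start of each gene (GRCm38.p6), 5′ to 3′ on the gene's own strand, at chr5:90890995-90891244, chr5:90903649-90903898 and chr5:90785851-90786100 (all forward) and chr5:92348890-92349139 (reverse). Capitals mark matches, on either strand, to an NF-kB motif (GGG and TTTCC with any 2 bases between), an interferon response element (GAAA and GAAA with any 2 bases between) and the TATA box TATAAA.
Cxcl1: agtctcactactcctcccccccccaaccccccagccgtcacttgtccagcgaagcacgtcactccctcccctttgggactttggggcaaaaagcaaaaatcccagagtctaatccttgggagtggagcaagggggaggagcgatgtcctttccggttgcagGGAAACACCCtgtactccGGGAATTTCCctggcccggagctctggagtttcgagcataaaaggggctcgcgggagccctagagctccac
Cxcl2: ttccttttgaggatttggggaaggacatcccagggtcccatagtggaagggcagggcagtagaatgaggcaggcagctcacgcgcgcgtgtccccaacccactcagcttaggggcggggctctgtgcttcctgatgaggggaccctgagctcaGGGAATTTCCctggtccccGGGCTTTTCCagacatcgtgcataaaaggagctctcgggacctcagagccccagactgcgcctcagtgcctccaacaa
Cxcl3: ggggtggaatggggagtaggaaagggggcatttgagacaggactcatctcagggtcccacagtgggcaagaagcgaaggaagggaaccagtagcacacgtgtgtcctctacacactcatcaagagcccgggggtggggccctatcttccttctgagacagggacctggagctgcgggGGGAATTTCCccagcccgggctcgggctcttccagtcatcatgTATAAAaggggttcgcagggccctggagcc
Cxcl10: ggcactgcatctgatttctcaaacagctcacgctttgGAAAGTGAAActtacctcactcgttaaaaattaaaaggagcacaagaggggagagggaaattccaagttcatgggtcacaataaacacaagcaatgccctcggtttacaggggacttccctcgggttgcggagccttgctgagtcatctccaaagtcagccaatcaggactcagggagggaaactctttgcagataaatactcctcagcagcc

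Sequences of this length were matched for 9 of the 10 genes, Cxcl16 having no entry. The NF-kB motif was found in 3 of the 9, with a pair of matches each upstream of Cxcl1 and Cxcl2 and a single match upstream of Cxcl3, the first of the Cxcl1 pair being on the reverse strand. The motif was present in 1.41% of 32851 promoters of the same length, and Ppbp, also neutrophil-attracting, had no match to it. The interferon response element was found upstream of Cxcl10 and Cxcl14 and in 2.98% of all promoters. The STAT motif TTCNNNGAA was found upstream of Cxcl14 and in 7.02% of all promoters, and the bases TATAAA upstream of Cxcl3, Cxcl9 and Ppbp and in 12.4%. Relative to the gene start, TATAAA began at -30 in Cxcl3, at -30 and -8 in Ppbp, and at -195 in Cxcl9. The Cxcl9 match thus lay well upstream of the other matches. No match to one motif overlapped a match to another in these sequences. The 3 genes with the NF-kB motif differed in their values: Cxcl3 had a log2 fold change of -2.07, Cxcl2 of -0.37, and Cxcl1 had too few counts to test.

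Of the 3 neutrophil-attracting ligands tested, Ppbp was the most abundant and Cxcl3 had the largest fold difference. Values are normalized counts, the estimated counts scaled for library size. Ppbp, the precursor of the platelet chemokine CXCL7, had 5297, 4688 and 5619.6 normalized counts in the sham-treated and 2361, 2663 and 2965 in the EV-treated samples. All 3 EV-treated samples were below all 3 sham-treated ones, as was so for each of the 6 genes called lower. Over all genes tested, the EV-treated samples lay wholly below for 24.7%. The group means were 5201 ± 473 and 2663 ± 302 (SD, n = 3 each). Ppbp was 1.95-fold lower, with a log2 fold change of -0.97 and SE of 0.0959 (edgeR, adjusted p = 3.33e-05).

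Cxcl3 had 2909, 2169 and 2321 normalized counts in the sham-treated and 547, 527 and 692 in the EV-treated samples. The highest EV-treated sample was far below the lowest sham-treated sample, and the log2 fold change was -2.07 (SE 0.136), or 4.19-fold lower (edgeR, adjusted p = 2.42e-06). Cxcl2, its close paralog, had 2089, 1891 and 1779 in the sham-treated and 1575, 1354 and 1515 in the EV-treated samples. The groups of Cxcl2 were narrowly apart, with means of 1919 ± 157 and 1482 ± 114 (SD, n = 3 each). The difference was 1.30-fold lower, a log2 fold change of -0.37 (SE 0.0867, edgeR, adjusted p = 0.00722). Cxcl2 lost the call when any sample other than sham replicate 3 was left out (5 of 6 fits), with edgeR adjusted p between 0.0151 and 0.0473, and kept it in the remaining fit (edgeR, adjusted p = 0.00962). Over all alternatives the adjusted p of Cxcl2 lay between 0.000915 and 0.0473.

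Cxcl1 had 36, 41 and 3 estimated counts in the sham-treated and 5, 3 and 3 in the EV-treated samples. Sham replicates 1 and 2 were high and sham replicate 3 was at the level of the EV-treated samples, so that the groups overlapped and the gene stayed below the count filter. Without the filter its log2 fold change was -3.03 (edgeR, adjusted p = 0.0506), and by DESeq2 it was -3.09 (adjusted p = 0.0115). With sham replicate 3 left out, Cxcl1 passed the filter and the threshold (log2 fold change -3.56, edgeR, adjusted p = 0.00808). With any EV replicate left out it passed the filter but not the threshold, with edgeR adjusted p between 0.0824 and 0.142.

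**Figure D1:**
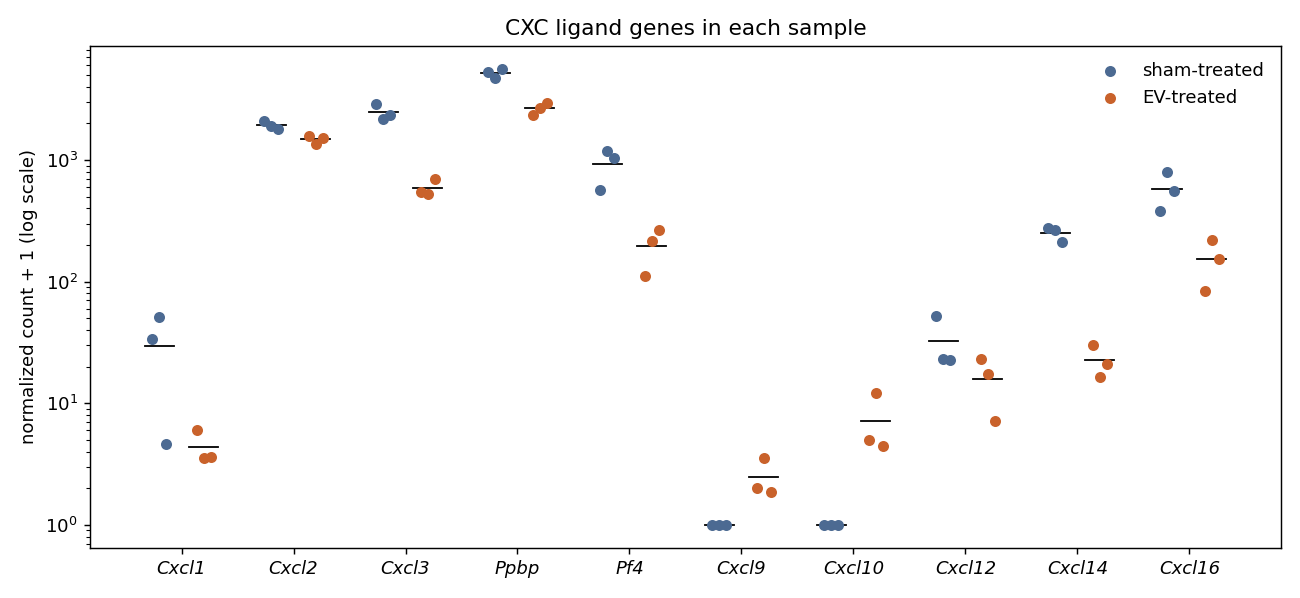
Normalized counts plus 1 (log scale) of the 10 CXC ligand genes in each of the 3 sham-treated and 3 EV-treated samples, with a bar at each group's mean. For Ppbp, Cxcl3, Cxcl2, Pf4, Cxcl16 and Cxcl14 the EV-treated points lie below all sham-treated points, and Cxcl9 and Cxcl10 are at 0 in the sham-treated samples.

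Cxcl2 and Cxcl3 share sequence, so reads could be assigned to either. In GENCODE vM21 transcripts, 7.59% of the 31-base words of Cxcl2 and 5.46% of those of Cxcl3 occurred in another gene, and 161 words were common to the pair. The longest shared run in their coding sequences opens both proteins and is shown because reads within it cannot be placed in either gene. Capitals mark the start codon, in the same frame in both.
Cxcl2 and Cxcl3: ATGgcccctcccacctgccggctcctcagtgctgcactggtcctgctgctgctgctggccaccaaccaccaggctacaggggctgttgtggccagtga

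The estimated counts of these genes were not whole numbers, but their sum was whole within 0.001 in every library. The summed normalized counts were 4998, 4060.2 and 4099.6 in the sham-treated and 2123, 1881 and 2207 in the EV-treated samples. Counted as a single gene, the pair was lower in EV-treated samples, with a log2 fold change of -1.08 (SE 0.0966, edgeR, adjusted p = 1.59e-05), a value that does not depend on how reads were divided within the pair. Of the summed estimated counts, Cxcl3 took 58.2%, 53.4% and 56.6% in the sham-treated and 25.8%, 28.0% and 31.3% in the EV-treated samples. The share of Cxcl3 was thus lower in every EV-treated sample, at 28.4% ± 2.81 against 56.1% ± 2.44 (SD, n = 3 each). The log2 ratio of Cxcl3 to Cxcl2 fell by 1.69, from 0.353 ± 0.143 to -1.34 ± 0.198 (exact two-sided permutation p = 0.1, the smallest that 3 against 3 samples allow). The summed gene and the ratio were chosen after the values were seen.

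**Figure D2:**
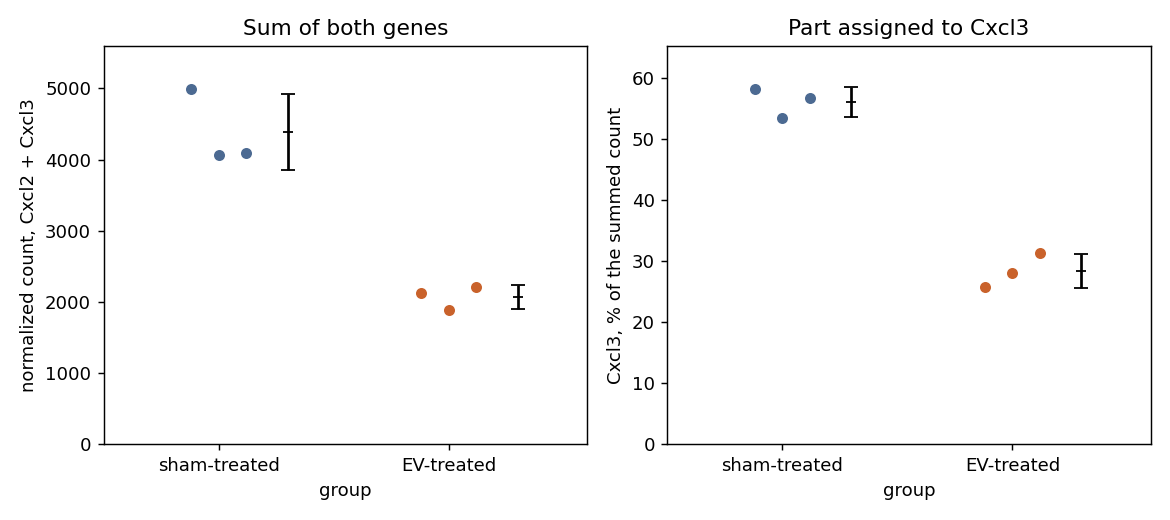
Summed normalized counts of Cxcl2 and Cxcl3 (left) and the percent of their summed estimated counts assigned to Cxcl3 (right) by group, with a point per sample and the mean ± SD (n = 3) in black. The sum was 4386 ± 530 in sham-treated and 2071 ± 169 in EV-treated samples, and the Cxcl3 percent was lower in all 3 EV-treated samples.

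Pf4 encodes platelet factor 4 (CXCL4), a heparin-binding chemokine stored in platelet granules. It had 561, 1180.2 and 1043 normalized counts in the sham-treated and 111, 213 and 264 in the EV-treated samples. Replicate 1 was the lowest in both groups, and the groups were apart. Pf4 was 4.70-fold lower in EV-treated samples, with a log2 fold change of -2.23 (SE 0.330, edgeR, adjusted p = 0.000491). Its neighbour Ppbp, whose end lies 2.371 kb before the start of Pf4 and which also encodes a platelet granule chemokine, had the smaller difference given above. The log2 ratio of Pf4 to Ppbp was -2.55 ± 0.633 in sham-treated and -3.85 ± 0.494 in EV-treated samples (SD, n = 3 each; exact two-sided permutation p = 0.1, adjusted p = 0.1 over the 2 ratios computed). This ratio, too, was chosen after the values were seen.

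Cxcl16 encodes a transmembrane chemokine that also acts as a scavenger receptor and is released by the protease ADAM10. It had 379, 795 and 552 normalized counts in the sham-treated and 81.9, 219 and 153 in the EV-treated samples. Replicate 1 was again the lowest and replicate 2 the highest in both groups, which did not overlap. Cxcl16 was 3.77-fold lower, with a log2 fold change of -1.92 (SE 0.350, edgeR, adjusted p = 0.00187), and the call was lost without EV replicate 3 (-1.91, edgeR, adjusted p = 0.0122, the highest over the alternatives, the lowest being 6.01e-08). Of its 31-base words, 18.5% occurred in Zmynd15, which overlaps it on the opposite strand and had between 10 and 27 estimated counts per library. The strand setting of the counting is not given in the sources used here.

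Cxcl14, a chemokine best known from epithelia, had the largest fold difference among the tested ligands. It had 274, 263 and 211 normalized counts in the sham-treated and 29.0, 15.4 and 20.02 in the EV-treated samples. The lowest sham-treated sample was well above every EV-treated sample. The log2 fold change was -3.54 (SE 0.289), or 11.7-fold lower (edgeR, adjusted p = 9.18e-06), and it lay between -3.80 and -3.34 over the alternatives.

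Cxcl12 had 51.4, 22.1 and 21.9 normalized counts in the sham-treated and 21.98, 16.3 and 6.09 in the EV-treated samples. The groups overlapped, with means of 31.8 ± 17.0 and 14.8 ± 8.05 (SD, n = 3 each), and sham replicate 1 stood above the rest. The log2 fold change was -1.11 (SE 0.680, edgeR, adjusted p = 0.241), and none of 14 fits called it, with log2 fold changes between -1.49 and -0.56.

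The interferon-induced ligands were near the limit of detection. Cxcl10 had 0 counts in every sham-treated sample and estimated counts of 4, 13.001 and 4 in the EV-treated samples. The EV-treated samples were all above the sham-treated ones, as was so for 24.8% of all genes tested. Against a floor of 3 counts per library the EV-treated mean was at least 1.86-fold higher. That mean rested largely on EV replicate 2 (13.001 counts). EV replicates 1 and 3, with 4 counts each, were close to the floor, so that the bound does not hold for each sample. Cxcl10 stayed below the filter, and its adjusted p was 0.0613 in edgeR without the filter. Of its 31-base words, 4.47% are shared, with Art3, which overlaps it and had between 11 and 34 estimated counts per library. Cxcl9 had 0 counts in the sham-treated and 1, 3 and 1 in the EV-treated samples, so that both groups were at or under the floor and no fold is given. The floor covers counting error only, and for Cxcl10 only that of the sham-treated zeros.

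**Figure D3:**
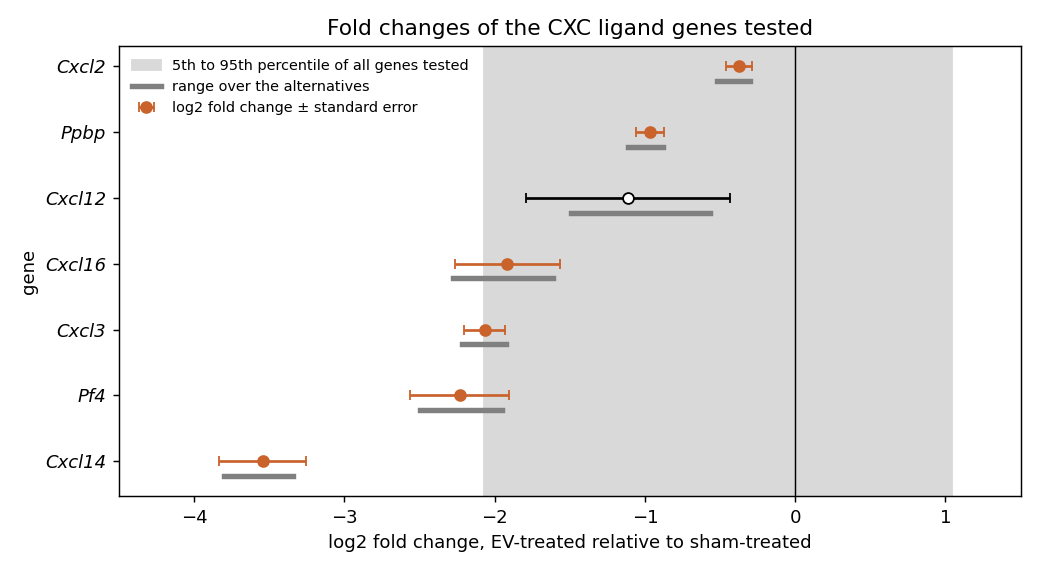
Log2 fold change (EV-treated relative to sham-treated) with its standard error for the 7 CXC ligand genes tested, filled where the adjusted p was under 0.01, with the range over the alternatives as a grey bar and the 5th to 95th percentile of all genes tested as shading. Cxcl14 (-3.54) and Pf4 (-2.23) lie below the shaded range, and Cxcl12 is the gene not called.

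Levels were compared between genes as normalized counts per kilobase of the gene's median coding transcript length. In sham-treated samples Ppbp was the highest at 4803 ± 437, above Cxcl3 at 2428 ± 385, Pf4 at 1858 ± 651 and Cxcl2 at 1293 ± 106 (SD, n = 3 each). The samples of Pf4 overlapped those of both Cxcl3 and Cxcl2, so that their order is not separated from the spread. Cxcl16 (213 ± 77.5) and Cxcl14 (152 ± 20.3) followed and overlapped, and Cxcl1 (30.2 ± 24.7) and Cxcl12 (10.1 ± 5.42) overlapped as well. In EV-treated samples Ppbp remained the highest at 2459 ± 279, but Cxcl2 at 998 ± 77.1 stood above Cxcl3 at 579.6 ± 88.4 and Pf4 at 392 ± 156, which overlapped. Cxcl16 was at 56.1 ± 25.5 and Cxcl14 at 13.04 ± 4.18, and Cxcl10, Cxcl12, Cxcl1 and Cxcl9 had means of 5.07, 4.72, 3.56 and 0.512.

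The level per kilobase summed over the 10 genes was 10643, 10615 and 11103 in the sham-treated and 4066, 4426 and 5044 in the EV-treated samples. Every EV-treated sample was below every sham-treated one, and the means were 10787 ± 274 and 4512 ± 495 (SD, n = 3 each). Of this sum, the share of Ppbp was 44.5% ± 3.24 in sham-treated and 54.5% ± 0.990 in EV-treated samples, and that of Cxcl2 was 12.01% ± 1.21 and 22.3% ± 3.28. The share of Cxcl3 was 22.5% ± 3.80 and 12.8% ± 0.964, and that of Pf4 was 17.2% ± 6.01 and 8.53% ± 2.69. The samples of the groups did not overlap for any of these 4 shares (exact two-sided permutation p = 0.1, adjusted p = 0.143 over the 10 genes). Since shares sum to the whole, they are not independent of each other, and the higher shares of Ppbp and Cxcl2 stood beside lower levels of both genes.

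**Figure D4:**
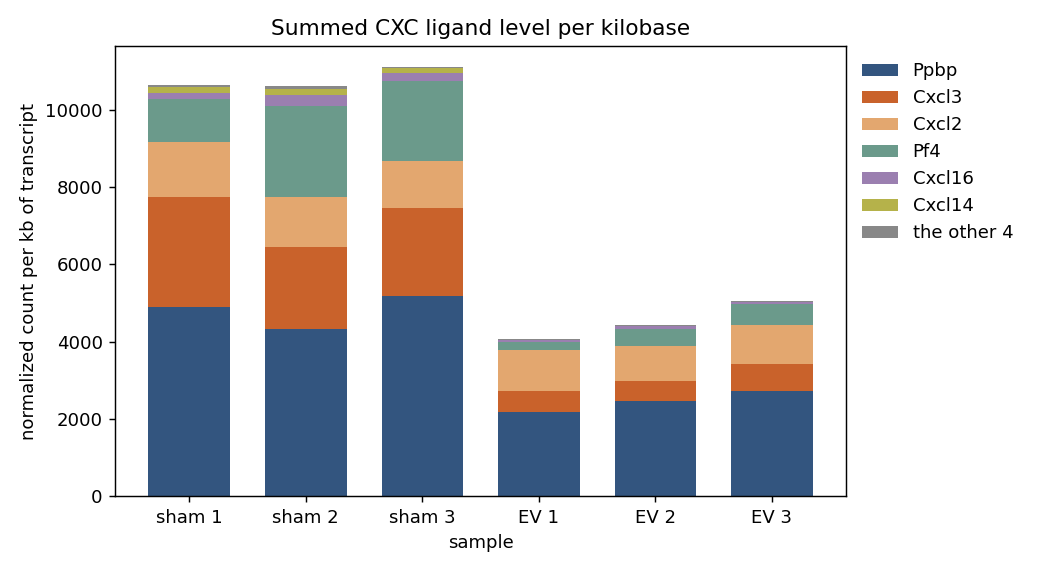
Normalized count per kilobase of the CXC ligand genes stacked in each of the 6 samples. The sham-treated columns sum to between 10615 and 11103 and the EV-treated columns to between 4066 and 5044, with Ppbp the largest segment in each.

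The receptors of these ligands were read from a list of 8 genes, of which 5 were listed in the table and 2 were tested. Cxcr2, the receptor of the neutrophil-attracting ligands, had 1034, 777 and 1009.7 normalized counts in the sham-treated and 3417, 3465 and 3452 in the EV-treated samples. It was 3.66-fold higher, a log2 fold change of 1.87 (SE 0.103, edgeR, adjusted p = 7.63e-07), while 3 of its ligand genes (Cxcl2, Cxcl3 and Ppbp) were lower in the same samples. Cxcr4, the receptor of CXCL12, had 22825, 21191 and 22825 normalized counts in the sham-treated and 11557, 11697 and 10928 in the EV-treated samples. It was 1.96-fold lower, a log2 fold change of -0.97 (SE 0.0563, edgeR, adjusted p = 1.06e-06). Cxcr3, Cxcr5 and Cxcr6 had too few counts to test, with means of at most 17.3 normalized counts in either group. The other ligands listed, Cxcl5 and Cxcl15, were also too low to test.

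Of 5 tested genes for proteases that cut chemokines, 2 were lower and 3 were not called. Mmp8, neutrophil collagenase, had a log2 fold change of -1.68 (SE 0.126, edgeR, adjusted p = 5.27e-06). Mmp9, gelatinase B, had one of -1.08 (edgeR, adjusted p = 0.00141), and without EV replicate 3 its adjusted p was 0.0103, in a range from 1.46e-08 over the alternatives. Adam10, which sheds CXCL16, had 4681 ± 257 and 4921 ± 255 normalized counts (SD, n = 3 each) and was not called (edgeR, adjusted p = 0.447). The RNA of Adam10 does not measure release of the CXCL16 protein, which was not tested.

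Of 12 genes of the NF-kB pathway and of chemokine mRNA decay, 4 were higher, 1 was lower and 7 were not called. Nfkbie and Nfkbiz, an inhibitor and a nuclear cofactor of NF-kB, had log2 fold changes of 0.90 and 0.81. Zfp36, whose product tristetraprolin binds and destabilizes cytokine and chemokine mRNAs, had 11633 ± 500.3 normalized counts in sham-treated and 19015 ± 1011 in EV-treated samples, a log2 fold change of 0.71 (SE 0.0603, edgeR, adjusted p = 1.17e-05). Nfkbia, which encodes the inhibitor IkB alpha, was lower by a log2 fold change of -0.32 and lost the call without sham replicate 3 or any of the EV replicates. Nfkb1 (0.29) lost it in the same 4 fits and without TMM scaling, where the value was 0.14 (edgeR, adjusted p = 0.0771, the highest in a range from 8.97e-06).

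Of 11 genes that carry interferon signals to the CXCR3 ligands, 6 were higher, 2 were lower and 3 were not called. Socs1, a feedback inhibitor of JAK kinases, had a log2 fold change of 5.10, Irf7 of 2.07 and Irf9, an interferon regulatory factor, of 1.31. Irf8, an interferon regulatory factor of the macrophage and dendritic lineages, moved the other way, with 672, 1266 and 911 normalized counts in the sham-treated and 52.9, 135 and 129.7 in the EV-treated samples, a log2 fold change of -3.15 (SE 0.333, edgeR, adjusted p = 5.01e-05). Over the 5 pathway lists, 11 of 30 tested genes were higher and 6 lower, where 12.1% of all genes tested were higher and 11.6% lower. Cxcl10 and Cxcl9 stayed at 13.001 counts or fewer in every library beside these values.

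Markers of other cell types differed between the groups, among them those of macrophages, which also express Pf4 and Cxcl16. Of 11 macrophage markers, 8 were lower, with a median log2 fold change of -2.48 over the list. For this and every other marker list, the share over all genes tested is 11.6% lower and 12.1% higher. Adgre1 was higher (21326 and 32764 normalized counts on average), and eosinophils also express it. The list summed to between 45332 and 62009 normalized counts in sham-treated and between 40806 and 45594 in EV-treated samples, so that the groups overlapped. Without Adgre1, the marker called higher, the sum was 24126, 40914 and 38053 in the sham-treated and 8721, 12062 and 12229 in the EV-treated samples. The groups did not overlap in this reduced sum, which was added after the values were seen. Csf1r, the receptor of macrophage colony-stimulating factor, had a log2 fold change of -1.31. Among the others, picked after their values were seen, the complement gene C1qb had 3128, 6296 and 5701 normalized counts in the sham-treated and 498, 1065 and 1134 in the EV-treated samples. Mertk, a receptor for the uptake of dying cells, had a log2 fold change of -2.85, and Cx3cr1 was at 0 in every EV-treated sample. C1qb and Mertk were lowest in replicate 1 of both groups, as Pf4 and Cxcl16 were. The part of macrophage transcripts in the values of Pf4, Cxcl16 and the other ligand genes was not tested.

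**Figure D5:**
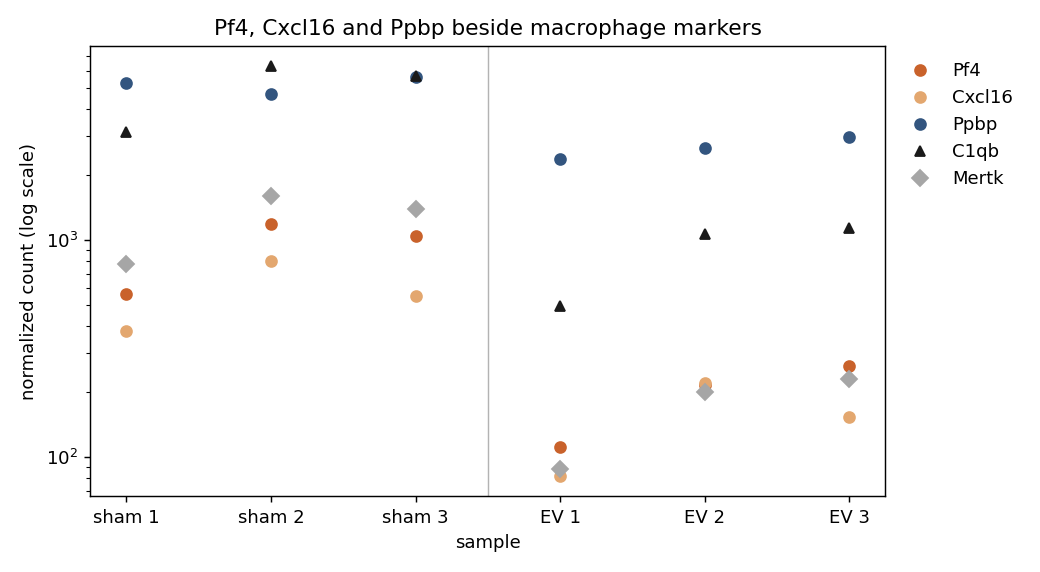
Normalized counts (log scale) of Pf4, Cxcl16 and Ppbp (circles) and of the macrophage markers C1qb (black triangles) and Mertk (grey diamonds) in each sample, sham-treated left of the line and EV-treated right of it. In both groups Pf4, Cxcl16 and both markers are lowest in replicate 1, and Ppbp is lowest in replicate 2 of the sham-treated and replicate 1 of the EV-treated samples.

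Megakaryocytes and platelets are the classic source of Ppbp and Pf4. Of 8 megakaryocyte and platelet markers tested, Itga2b was higher (log2 fold change 0.50), Vwf was lower (-1.43) and 6 were not called. These counts were near the shares over all genes tested (12.1% higher and 11.6% lower). The list summed to between 11912 and 13792 normalized counts in sham-treated and between 14967 and 17876 in EV-treated samples. Itga2b made up most of these sums, at 11204 and 15800 on average. Gp1bb, below the count filter, was at 0 in every sham-treated sample and at 21.0, 5.14 and 12.2 in the EV-treated samples. Treml1 was lower in every EV-treated sample than in any sham-treated one but missed the threshold (-2.90, edgeR, adjusted p = 0.0142). Of 4 tested stromal markers, 1 was lower, the collagen gene Col1a2 (log2 fold change -2.91). The stromal list summed to between 11239 and 21340.0 in sham-treated and between 1709 and 7618 in EV-treated samples, and Col1a1 missed the threshold (-2.74, edgeR, adjusted p = 0.0303). In the EV-treated samples most of this signal came from replicate 1, where Col1a1 had 3349 normalized counts against 173 and 382 in replicates 2 and 3, and Col1a2 had 2188 against 227 and 403. Cxcl12 and Cxcl14 were also highest in replicate 1 of the EV-treated samples. The sham-treated samples were mixed: Col1a2 was highest in replicate 1 (8149), as Cxcl12 and Cxcl14 were. Col1a1 was highest in replicate 3 (11350), where Cxcl14 was lowest (211). Pdgfrb, another stromal marker tested, averaged 1201 normalized counts in sham-treated and 1421 in EV-treated samples and was not called. The part of stromal cells in the values of Cxcl12 and Cxcl14 was not tested.

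Of the other lists, 8 of 11 eosinophil markers were higher, Epx among them (log2 fold change 0.41), while Prg2, the most abundant, missed the threshold (0.23, edgeR, adjusted p = 0.0478). The eosinophil list summed to between 930213 and 1172124 normalized counts in sham-treated and between 1329200 and 1486135 in EV-treated samples, so that the labelled cell type was present in both groups. Of 9 tested neutrophil markers 5 were lower, Mmp8 among them, and Ngp, the most abundant, was not called (0.02). The 1 that was higher, Ly6g, averaged 559 normalized counts in sham-treated and 3516 in EV-treated samples (log2 fold change 2.65). The sums ran from 21427 to 24910 in sham-treated and from 16903 to 20820.3 in EV-treated samples. Of 6 mast cell and basophil markers 4 were higher, including Gata2 (1.07) and Cpa3 (1.30), with sums of 4101 to 5233 and 9891 to 11712. Of 3 T cell markers, Cd28 was lower (-3.70) and Cd8a and Cd3d (0.35) were not called, with sums of 376 to 929 and 126 to 168. Cd28 made up most of the sham-treated sums, at 559 normalized counts on average against 42.4 in EV-treated samples. All 4 dendritic cell markers tested missed the threshold, Itgax and Xcr1 included, with sums of 4939 to 5582 and 5202 to 6374.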

How the data were processed

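RNA was sequenced from 3 sham-treated and 3 EV-treated cultures, grouped by the treatment in the sample labels. Per the submitters' processing notes and the methods, the authors checked reads with FastQC, trimmed them with cutadapt and quantified them with Salmon against mm10, and compared groups with DESeq2. Tool versions and the strand setting are not given in the sources used here. What the authors deposited are estimated counts of 16254 genes, not all of them whole, and normalized counts, a signal scaled by a size factor per sample. A deposited table of the authors' own comparison holds fold changes, p-values and mean counts and was not used. Library totals lay between 23697620 and 37874426, so that counting error matters mainly for genes with few counts.

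The estimated counts were rounded and tested with edgeR 4.0.16 in R 4.3.3 (TMM scaling, filterByExpr with a minimum count of 10, quasi-likelihood test, Benjamini-Hochberg adjustment over 13498 genes, adjusted p under 0.01). Normalized counts are rounded counts over the TMM-scaled library size. Cxcl1, Cxcl9 and Cxcl10 did not pass the filter. Exact permutation tests (scipy 1.17.1) were run on shares and ratios. Alternatives were other scalings, no filter, DESeq2 1.42.0, limma 3.58.1 on the deposited normalized counts (log2 after adding 1), thinned counts, the replicate number as a block, other thresholds, the longest transcript in place of the median length, and leaving out each sample. The sum of Cxcl2 and Cxcl3, the 2 ratios and the macrophage sum without Adgre1 were added after the data were seen. On simulated counts, edgeR called 196 of 200 changed genes, limma 196 and DESeq2 186, with 2, 1 and 2 false calls. The planted changes were of at least 1 log2 unit, in genes above a low mean count and with a common dispersion. The simulation thus does not cover changes as small as that of Cxcl2 or genes with a wider spread.

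The 10 genes and the lists were chosen with earlier results of these data known. Named genes were all 10 ligands, up to 4 called genes of each pathway list by size of change, and the 2 most abundant of each marker list. C1qb, Mertk, Cx3cr1, Gp1bb, Treml1, Pdgfrb, Cd3d, Ly6g, Nfkb1 (the fifth called gene of its list) and Adam10 were named after their values were seen. Some genes of the lists are not reported here by name. Motifs were searched on both strands of 250 bases, and shared sequence was counted as 31-base words of GENCODE vM21 transcripts.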

Additional observations from a re-analysis of the deposited data

How the results depend on the processing

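The count of ligand genes called lower was 6 under other scalings, no filter, DESeq2, limma, thinned counts and an adjusted p under 0.05. It was 4 when at least a 1-unit log2 fold change was also required, 5 with Cxcl2 and Cxcl3 summed, and between 4 and 7 when a sample was left out, where Cxcl2 (5 fits) and Cxcl16 (without EV replicate 3) were the genes lost and Cxcl1 (without sham replicate 3) the gene gained. Every tested ligand gene kept its direction in these fits. Without TMM scaling the median log2 fold change of all genes was -0.16, against -0.01 with it, the split of all genes was 1036 higher and 2342 lower, against 1632 and 1572, and Cxcl2 was at -0.52. Of the pathway genes, 6 were higher and 3 lower under that requirement, against 11 and 6, since smaller changes are left out there. The share of Cxcl12 in the summed level, EV minus sham, was 0.0151 percentage points and lay between -0.0164 and 0.0506 when a sample was left out, changing sign without sham replicate 3 (-0.000670) and without EV replicate 1, far inside the spread between samples.

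The groups share replicate numbers, but the deviations of same-numbered samples correlated at 0.106, 0.0831 and 0.0417, so the numbers were not taken as pairs, although every sample correlated best with its own number. With a replicate block, 6 ligand genes were lower and 0 higher, and 11 pathway genes were higher and 7 lower. The block took the SE of Pf4 from 0.330 to 0.146 and that of Cxcl16 from 0.350 to 0.170. It also lowered the SE of Ppbp and Cxcl3, and it raised that of Cxcl2, Cxcl12 and Cxcl14. Depth limits Cxcl1, Cxcl9 and Cxcl10, at or near 3 counts in at least 1 group.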
